A study of Homo sapiens with 9 samples.

Results

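The HSP90 chaperones, the small heat shock proteins, the mitochondrial chaperonin pair, the co-chaperone BAG3 and the heat shock factors were examined as 10 genes: HSP90AA1, HSP90AB1, HSPB1, HSPB8, CRYAB, HSPD1, HSPE1, BAG3, HSF1 and HSF2. Their probe sets were found by gene symbol, current or alias, in the platform annotation of the deposited values. There were 22 such probe sets among 49395 on the array. Of these, 18 were annotated to 1 gene and 4 to a member together with a second gene. At least 1 single-gene probe set was found for 9 of the 10 genes, out of 18132 genes with such a probe set. HSF2 is not analysed here.

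RNA was measured on 9 one-colour Affymetrix expression arrays in 3 groups of 3. The cells are labelled R-HepG2, an insulin-resistant form of HepG2, which is a human hepatoma line, and all of them were first kept overnight without serum. For the next 4 h the medium group received plain DMEM, the insulin group insulin at 40 ug/ml, and the biomineralized insulin group insulin in a mineral complex at the same 40 ug/ml. By the protocols all 9 samples are R-HepG2, whereas the cell line label has plain HepG2 on the 6 treated samples. If that label were right, cell form and treatment could not be told apart in comparisons with medium. No group received the mineral without insulin, so the parts of mineral and insulin cannot be told apart either. Whether replicates were separate cultures is not stated, and the p-values therefore reflect array-to-array spread that may be technical.

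HSP90 is an ATP-driven dimer that completes the folding of kinases, steroid receptors and other client proteins, in turn with HSP70 and a set of co-chaperones. The small heat shock proteins bind unfolding proteins without ATP and hold them for refolding or disposal. HSPD1 and HSPE1 form the folding chamber of the mitochondrial matrix and its lid. Under protein damage, HSF1 is freed from chaperones, trimerizes and binds heat shock elements, in which the unit GAA and its reverse complement TTC alternate at a spacing of 2 bases.

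Promoter stretches are shown because the members differ in whether such an element lies near their start. In RefSeq promoter windows of assembly GRCh38.p14, from 250 bases before to 50 bases after a gene start, both strands were searched for 3 alternating units (each neighbouring pair being GAANNTTC or TTCNNGAA). The 3-unit element was found in 172 of 35116 windows, or 0.490%. The 2-unit form, which overlaps with it, was found in 4737 windows, or 13.5%. Capitals mark every base that lies in a 2-unit match, and each stretch is read 5′ to 3′ on the strand of its gene, upstream of the gene start of its window.
HSP90AA1: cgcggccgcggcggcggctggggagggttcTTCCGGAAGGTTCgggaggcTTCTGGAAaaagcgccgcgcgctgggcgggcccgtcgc
HSP90AB1: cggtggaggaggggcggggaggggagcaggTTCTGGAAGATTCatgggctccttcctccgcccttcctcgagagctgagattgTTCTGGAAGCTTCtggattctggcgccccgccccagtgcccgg
HSPD1: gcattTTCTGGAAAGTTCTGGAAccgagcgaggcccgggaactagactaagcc
HSPB8: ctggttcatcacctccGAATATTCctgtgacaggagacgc
HSPB1: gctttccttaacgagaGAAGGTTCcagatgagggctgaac
The HSP90AA1 stretch (chr14:102087075-102087162, minus strand) holds 1 element of 3 units, which begins 88 bases upstream of the start, and a 2-unit match 68 bases upstream. The HSP90AB1 stretch (chr6:44247748-44247873, plus strand) holds 2 elements of 3 units, beginning 165 and 112 bases upstream. The HSPD1 stretch (chr2:197500038-197500090, minus strand) holds 2 overlapping elements of 3 units within 18 bases. HSPB8 (chr12:119178827-119178866) and HSPB1 (chr7:76302475-76302514), both on the plus strand, hold 2-unit matches that begin 88 and 182 bases upstream.

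HSPD1 and HSPE1 face away from each other on chromosome 2. The first listed HSPD1 start, on the minus strand, lies 105 bases from the HSPE1 start, on the plus strand, and their windows overlap by 204 bases. Neither of these 2 windows holds an element, and neither does the BAG3 window. The 18 bases with the HSPD1 elements lie upstream of a second HSPD1 start but 189 to 206 bases downstream of the first listed HSPD1 start. They lie 294 to 311 bases upstream of the HSPE1 start, outside the HSPE1 window. The other windows listed for HSP90AA1 (1) and HSP90AB1 (2) hold none. A match describes letters in a window, and its absence says nothing about binding by HSF1.

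Deposited values were log2 expression values, and a difference of 1 on this scale is a 2-fold change. Of the 22 probe sets, 19 lay above the brightness filter of 4.74 log2, the level that left out the dimmest 40% of probe sets. Each of the 9 genes had at least 1 of them. Changes were tested with limma over 12240 genes, 1 probe set per gene, and over 29576 probe sets, and a gene or probe set was called changed at a Benjamini-Hochberg adjusted p under 0.05. All array medians were nearly equal, so every change below is relative to the median of all genes on the array. The number of arrays limits the precision.

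The labelled cell type was checked first. Of 14 hepatocyte and hepatoma markers with values, 5 lay above the filter, at medium means of 5.77 (APOA1), 5.25 (AHSG), 5.15 (TTR), 4.88 (TF) and 4.83 log2 (FOXA2). The other 9 lay below it, with ALB at 3.28, AFP at 3.00 and APOB at 2.88. The array's 23 background probe sets had a median of 2.99 log2 and ranged from 2.27 to 9.94. ALB, AFP and APOB thus lay near the background median. With 9 of the 14 markers below the filter, these values did not show the hepatoma identity given by the label. Whether the cells are HepG2 was not tested further. The mean over the 14 markers was 4.06 to 4.17 in medium, 4.08 to 4.14 in insulin and 4.08 to 4.17 in biomineralized insulin.

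Markers of other cell types were read in the same way, in the same order of groups. The 6 lung epithelium markers, 4 of them above the filter, averaged 4.86 to 4.98, 4.94 to 4.99 and 5.07 to 5.15. The 5 squamous or basal markers, 4 above it, averaged 6.15 to 6.24, 6.25 to 6.35 and 6.29 to 6.41, with SFN at 10.7 in medium and the others at 3.85 to 6.71. The 7 fibroblast markers, 5 above it, averaged 5.78 to 5.92, 5.81 to 5.85 and 5.84 to 5.87. The 4 endothelium markers, all above it, averaged 5.02 to 5.26, 5.17 to 5.22 and 5.21 to 5.24, and the 5 blood cell markers, 2 above it, 3.91 to 4.08, 3.96 to 4.06 and 4.01 to 4.06. Against medium, biomineralized insulin gave NKX2-1 0.59, S100A2 0.38, DCN 0.32, COL1A1 -0.20 and PDGFRB -0.42, the only markers called on the deposited scale. On the spike-in scale described below, NKX2-1 (0.18), S100A2 (-0.02) and DCN (-0.08) were not called and COL1A1 and PDGFRB stayed lower. No liver marker above the filter was called on the deposited scale. On the spike-in scale APOA1 (-0.28), TF (-0.31), AHSG (-0.34) and FOXA2 (-0.32) were called lower and TTR (-0.21) was not. Markers in each of the other lists were called lower there too. The part of these markers in the results was not tested.

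The plot of values by array gives every gene on every array.

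**Figure D1:**
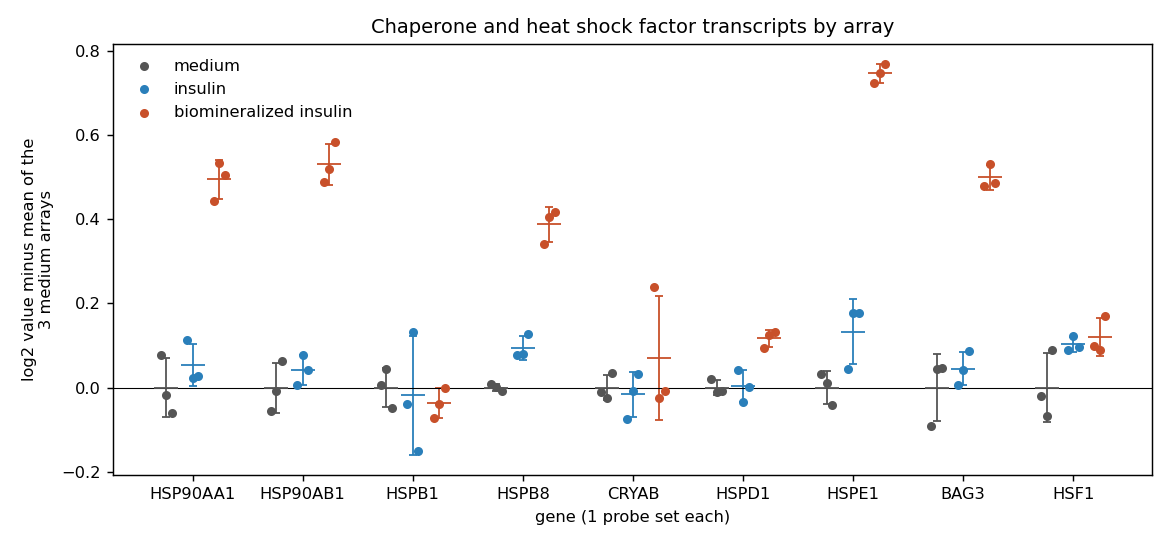
Log2 value of the single-gene probe set of each of 9 genes on each array, minus the mean of that gene's 3 medium arrays. Points are arrays (grey medium, blue insulin, red biomineralized insulin), the horizontal bars are group means and the vertical bars 1 SD (n = 3). The 3 biomineralized insulin points of HSPE1, HSP90AB1, HSP90AA1, BAG3, HSPB8 and HSPD1 lie above all 6 other points of the gene. Those of HSPB1 lie among the other points, as do those of CRYAB except replicate 1, which lies above them.

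Insulin in solution left these genes near their level in medium. None of the 9 genes passed the test, against 1.25% of all tested genes that were called higher and 1.2% called lower, and their median difference was 0.05 log2 against 0.01 over all genes. At an unadjusted p under 0.05 there were 1928 genes in all, HSPE1 among the members. Over probe sets, 2 of 19 were called higher, against 0.473% of all tested probe sets. They were 1 of the 2 for HSP90AA1 and 1 of the 3 for HSPE1.

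HSP90AA1 encodes the stress-inducible cytosolic HSP90. Its probe set 11732996_at read 10.19, 10.17 and 10.27 log2 in medium and 10.39, 10.42 and 10.41 in insulin. The groups did not overlap, and the difference was 0.20 ± 0.03 (SE, n = 3 per group, adjusted p = 0.015 over probe sets). Its brighter probe set 11758308_s_at read 12.22, 12.13 and 12.08 in medium and 12.26, 12.17 and 12.17 in insulin, which overlap, with a difference of 0.05 ± 0.04 (adjusted p = 0.57). The call for 11732996_at was lost without medium replicate 1 (adjusted p = 0.052), medium replicate 2 (0.10) or insulin replicate 3 (0.084).

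HSPE1 encodes the lid of the mitochondrial chaperonin. The probe set 11716351_s_at, annotated to HSPE1 and to the read-through HSPE1-MOB4, read 11.70, 11.69 and 11.77 in medium and 11.89, 11.92 and 12.00 in insulin, a difference of 0.22 ± 0.03 (adjusted p = 0.0080). The single-gene probe set 11753996_x_at read 9.29, 9.27 and 9.22 against 9.30, 9.43 and 9.43. All 3 insulin values were the higher ones, but the difference of 0.13 ± 0.04 did not pass the test over genes (adjusted p = 0.13). The call for 11716351_s_at was lost without medium replicate 2 (adjusted p = 0.067) or insulin replicate 3 (0.057). The actin 3' minus 5' control signal, a measure of RNA and labelling quality, was 3.19 ± 0.08 (SD, n = 3) log2 in insulin and 3.02 ± 0.06 in medium, a difference of 0.17 (exact permutation test, two-sided, p = 0.1 and 0.3 adjusted over 6 tests, where 3 against 3 arrays cannot go below 0.1). Its part in these calls was not tested.

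With biomineralized insulin, both HSP90 genes, HSPE1, BAG3, HSPB8 and, by a small amount, HSPD1 rose against medium. HSPB1, CRYAB and HSF1 did not pass the test. So 6 of 9 genes were called higher and none lower, where 25.7% of all tested genes were called higher and 25.2% lower. The median difference of the 9 genes was 0.39 log2, against 0.02 over all tested genes. Over probe sets, 15 of 19 were called higher against 22.1% of all tested probe sets. In these bulk samples a change in the share of cells and a change in RNA per cell cannot be told apart.

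HSPE1 moved most of the 9 genes. Its single-gene probe set read 9.98, 10.01 and 10.03 in biomineralized insulin against 9.29, 9.27 and 9.22 in medium. All 3 treated values lay above all medium values, and the difference was 0.75 ± 0.04, or 1.68-fold (adjusted p = 5.7e-10). Only 1.23% of tested genes had a higher signed difference. The 2 probe sets shared with HSPE1-MOB4 gave like differences, so that all 3 lay between 0.72 and 0.76 over medium means from 8.23 to 11.7 log2.

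HSP90AB1 encodes the constitutive cytosolic HSP90. Its single-gene probe set read 11.99, 12.04 and 12.11 in medium, 12.06, 12.13 and 12.09 in insulin and 12.54, 12.57 and 12.64 in biomineralized insulin. The medium and insulin values overlap and the biomineralized insulin values lie above both. The difference from medium was 0.53 ± 0.03, or 1.45-fold (adjusted p = 2.1e-09). The probe set shared with the pseudogene HSP90AB3P gave 0.45.

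For HSP90AA1, the brighter probe set read 12.59, 12.68 and 12.65 in biomineralized insulin, a difference from medium of 0.50 ± 0.04, or 1.41-fold (adjusted p = 1.2e-08). Its other probe set, 11732996_at, read 10.94, 10.96 and 10.97, a difference of 0.75 ± 0.03. The probe sets of this gene thus gave unequal sizes in the same direction. The within-array difference between HSP90AA1 and HSP90AB1 changed by -0.04 from medium to biomineralized insulin (two-sided exact permutation p = 0.8, 0.96 adjusted over 6 tests).

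BAG3 links HSP70 to small heat shock proteins and to selective autophagy. It read 9.63, 9.77 and 9.77 in medium, 9.73, 9.77 and 9.81 in insulin and 10.21, 10.26 and 10.21 in biomineralized insulin. Only the last group stands apart, with a difference from medium of 0.50 ± 0.04, or 1.41-fold (adjusted p = 6.0e-08).

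HSPB8, the small heat shock protein that works with BAG3, gave different answers on its probe sets. The brighter, 11715776_a_at, read 8.15, 8.14 and 8.13 in medium, 8.22, 8.22 and 8.26 in insulin and 8.48, 8.54 and 8.56 in biomineralized insulin. The 3 groups did not overlap, and biomineralized insulin against medium gave 0.39 ± 0.05, or 1.31-fold (adjusted p = 2.0e-06). The dimmer, 11715775_a_at, read 6.39, 6.55 and 6.38 in medium and 6.48, 6.39 and 6.51 in biomineralized insulin, values that overlap (difference 0.02, adjusted p = 0.86).

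HSPD1, the chamber of the mitochondrial chaperonin, read 12.69, 12.66 and 12.66 in medium, 12.71, 12.64 and 12.67 in insulin and 12.77, 12.80 and 12.81 in biomineralized insulin. The last group lies just above the others, by 0.12 ± 0.03 over medium, or 1.08-fold (adjusted p = 0.0013). This change was small: 32.9% of tested genes had a higher one. The 6 bright HSPD1 probe sets gave 0.11 to 0.21, and all 6 were called (highest adjusted p = 0.028). In 11737053_s_at, however, the medium and biomineralized insulin values overlap. Its difference from medium was 0.15 with biomineralized insulin and 0.14 with insulin, the latter not called. All 6 carry the design's mark for probes that can also match other transcripts, and 1 is shared with the pseudogene HSPD1P5. The same mark is on the probe sets tested for HSPE1, HSPB1, BAG3, HSF1 and, in its brighter probe set, HSP90AA1. Near-identical copies may add to these signals.

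The chaperonin chamber and lid therefore moved by unequal amounts. The within-array difference of HSPE1 minus HSPD1 was 0.63 log2 larger in biomineralized insulin than in medium, with no overlap between the groups (exact permutation test, two-sided, p = 0.1, the lowest for 3 against 3, and 0.3 adjusted over 6 tests). Against insulin it was 0.50 larger (p = 0.1, exact permutation).

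HSPB1, the small heat shock protein also known as HSP27, read 9.95, 9.99 and 9.90 in medium, 9.91, 10.08 and 9.80 in insulin and 9.88, 9.91 and 9.95 in biomineralized insulin. The 3 groups overlap. The difference from medium under biomineralized insulin was -0.04, with a 95% interval of -0.16 to 0.08 (adjusted p = 0.60). CRYAB, the alpha-crystallin B chain, was dim: its brighter probe set read 5.62, 5.60 and 5.66 in medium, 5.55, 5.62 and 5.66 in insulin and 5.87, 5.60 and 5.62 in biomineralized insulin. Only biomineralized insulin replicate 1 lies apart, and the difference of 0.07 has an interval of -0.11 to 0.24. The second CRYAB probe set, at 3.13 to 3.71 log2 on the 9 arrays, lay below the filter.

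HSF1, the factor that binds the elements, read 7.84, 7.79 and 7.95 in medium, 7.95, 7.98 and 7.95 in insulin and 7.96, 7.95 and 8.03 in biomineralized insulin. The groups overlap or touch, and the difference from medium under biomineralized insulin was 0.12 ± 0.05 with an unadjusted 95% interval of 0.0078 to 0.23 (adjusted p = 0.070). It passed the test without medium replicate 3 (0.16, adjusted p = 0.018), with quantile normalization (0.16, adjusted p = 0.029), with array weights (0.15, adjusted p = 0.020) and with a gene's probe sets averaged (0.12, adjusted p = 0.046). HSF1 is activated mainly at the protein level, which these arrays do not read.

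**Figure D2:**
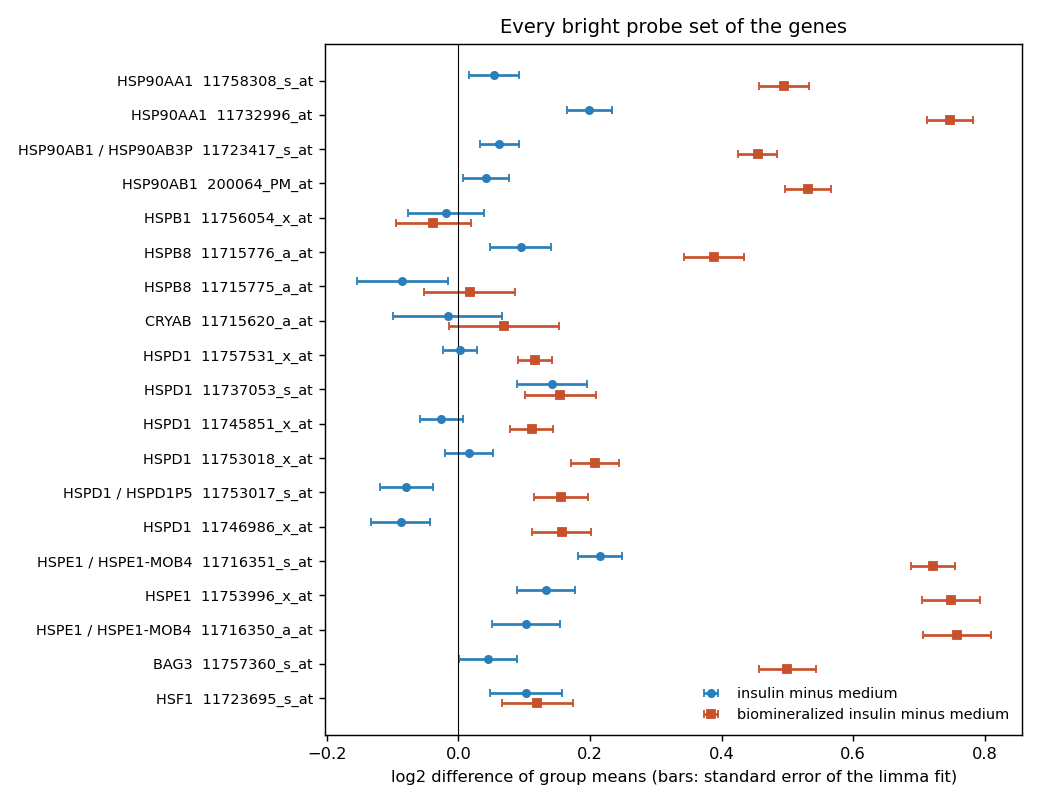
Difference of group means in log2, with bars for 1 SE of the limma fit, for each of the 19 probe sets above the brightness filter (blue circles insulin minus medium, red squares biomineralized insulin minus medium). A name with a slash is a probe set shared with a second gene. The red squares of HSPE1 lie at 0.72 to 0.76 and those of HSPD1 at 0.11 to 0.21, and the 2 HSPB8 probe sets differ.

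Insulin and biomineralized insulin were given at the same stated concentration, so their direct comparison is at equal stated dose. How much insulin reached the cells in each group is not known from these arrays. The same 6 genes were called higher in biomineralized insulin, where 21.1% of all tested genes were called higher and 23.3% lower. HSPE1 was higher by 0.61, HSP90AB1 by 0.49, BAG3 by 0.45, HSP90AA1 by 0.44, HSPB8 by 0.29 and HSPD1 by 0.11 log2, each with an SE of 0.03 to 0.05 and with no overlap between the groups on the probe set tested for the gene. Their adjusted p ranged from 7.8e-09 for HSP90AB1 to 0.0018 for HSPD1. HSPB1 (-0.02), CRYAB (0.09) and HSF1 (0.02) did not pass the test. The median of the 9 genes was 0.29 against 0.02 over all tested genes. Over probe sets, 14 of 19 were called higher against 18.5% of all tested probe sets. Of the 6 bright HSPD1 probe sets, 11737053_s_at was not called (0.013, adjusted p = 0.88), nor was the dimmer of the HSPB8 probe sets (0.10, adjusted p = 0.27), and in both the groups overlap. This comparison and the one against medium share the biomineralized insulin arrays and are not independent.

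The scale of the arrays decided several of these directions. The poly-A spike-ins, bacterial RNAs added in fixed amount during labelling, averaged 7.22 log2 in medium, 7.23 in insulin and 7.62 in biomineralized insulin over 24 probe sets. When the arrays were centred on them, the median of all tested genes in biomineralized insulin against medium moved from 0.02 to -0.38, and 273 genes were called higher and 9120 lower. On that scale HSPE1 stayed higher at 0.34 ± 0.10 (adjusted p = 0.0013), as did HSP90AA1 probe set 11732996_at at 0.34. HSP90AB1 at 0.13, BAG3 at 0.10, the brighter HSP90AA1 probe set at 0.09 and HSPB8 at -0.015 did not pass the test. HSPD1 at -0.29, HSF1 at -0.28, CRYAB at -0.33 and HSPB1 at -0.44 were called lower. Over probe sets, 4 were then called higher and 9 lower. Centring shifts all genes of an array together, while the fit treats their spread as independent between genes. The SE of HSPE1 was 0.10 here and 0.04 on the deposited scale. Adjusted p-values on the spike-in scale, against either group, may therefore be too small.

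Against insulin, the same centring moved the median of all tested genes from 0.02 to -0.37, with 165 genes called higher and 9446 lower. HSPE1 stayed higher at 0.23 (adjusted p = 0.032). HSP90AB1 at 0.10, BAG3 at 0.07, HSP90AA1 at 0.06 and HSPB8 at -0.09 did not pass the test, and HSPD1 at -0.27, CRYAB at -0.30, HSF1 at -0.37 and HSPB1 at -0.41 were called lower. Over probe sets, 2 were called higher and 7 lower. The order of the genes was kept by construction. The spike-ins were added at labelling, to RNA already taken from the cells, so neither scale measures the amount per cell. Which scale is nearer to it was not tested.

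**Figure D3:**
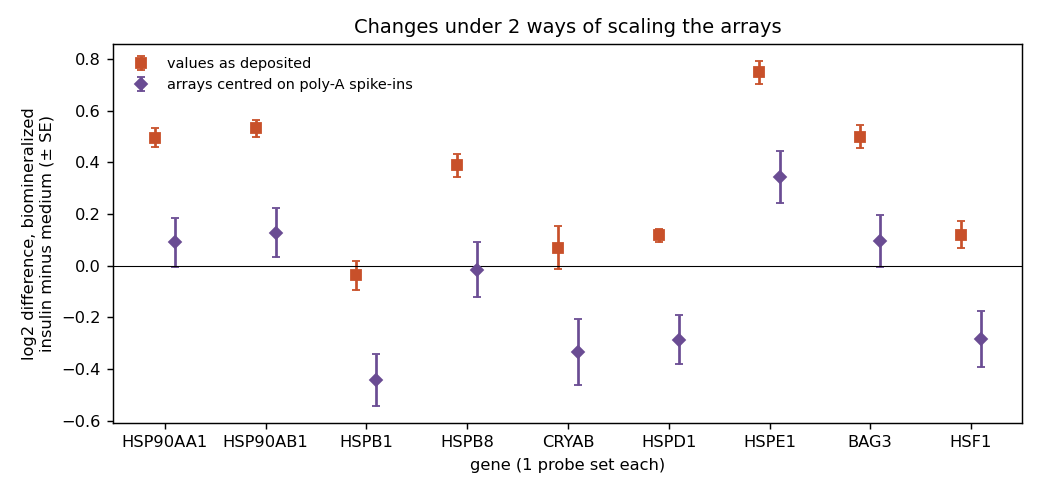
Log2 difference between biomineralized insulin and medium for each of 9 genes, with bars for 1 SE, from the values as deposited (red squares) and after centring the arrays on the poly-A spike-ins (purple diamonds). Every gene lies lower on the spike-in scale, HSPE1 stays called higher at 0.34, and HSPD1, HSF1, CRYAB and HSPB1 are called lower there.

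The members' partners and related genes are given from 6 lists, of which several share genes. In biomineralized insulin against medium, 25.7% of all 12240 tested genes were called higher and 25.2% lower. On the spike-in scale 273 of them were called higher and 9120 lower. Counts of a list near these shares say nothing particular about that list. With insulin alone, 3 genes of all lists were called, all lower: HSPA9 (-0.19, adjusted p = 0.0084), LONP1 (-0.16, adjusted p = 0.022) and DYNC1H1 (-0.16, adjusted p = 0.025). On the spike-in scale none of them was called. The list that holds DYNC1H1 had no lower call in 13 of 25 alternatives, among them each one without a medium array or without insulin replicate 1 or 3. The mitochondrial list that holds HSPA9 and LONP1 went from 2 lower calls to 1 or 0 in 10 of 25: 1 was left without medium replicate 1, medium replicate 2 or insulin replicate 1, and 0 without insulin replicate 3.

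HSP90 works with other paralogs and with co-chaperones that steer its cycle. Of 21 tested genes of that list (24 listed), 10 were higher and 3 lower in biomineralized insulin than in medium, with a median of 0.07, and on the spike-in scale 0 were higher and 14 lower. CHORDC1, an HSP90-binding co-chaperone, rose by 0.45 ± 0.07 and STIP1, the adaptor between HSP70 and HSP90, by 0.38 ± 0.06. FKBP5, an immunophilin of steroid receptor complexes and a target of the glucocorticoid receptor, fell by 0.61 on the log2 scale, and CDC37L1, a relative of the kinase co-chaperone CDC37, fell by 0.52. The paralogs of other compartments are named after their values were seen: HSP90B1 of the endoplasmic reticulum gave -0.0048 (adjusted p = 0.88) and mitochondrial TRAP1 gave -0.07 (adjusted p = 0.21). On the spike-in scale CHORDC1 (0.05) and STIP1 (-0.02) did not pass the test.

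Of the other small heat shock proteins, 1 of 8 could be tested. HSPB7, best known from heart muscle, rose by 0.18 ± 0.06 (adjusted p = 0.016) and was called lower on the spike-in scale (-0.23).

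The BAG family and the selective autophagy genes moved both ways. Of 11 tested genes, 2 rose and 4 fell, with a median of 0.01, and on the spike-in scale 1 was higher and 10 lower. BAG1, a nucleotide exchange factor of HSP70 that links it to the proteasome, rose by 0.76 ± 0.04 and stayed higher on the spike-in scale (0.36). MAP1LC3B, which coats autophagosomes, fell by 0.64, BAG4, another HSP70 partner, by 0.40, and DYNC1H1, the dynein heavy chain, by 0.22 on the log2 scale.

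Of 17 mitochondrial folding and proteolysis genes, 5 rose and 8 fell, with a median of -0.10, and on the spike-in scale 0 were higher and 13 lower. GRPEL2, a nucleotide exchange factor of mitochondrial HSP70, fell by 0.77, the matrix protease LONP1 by 0.50, HSCB, a co-chaperone of iron-sulphur cluster assembly, by 0.39, and mitochondrial HSP70 itself, HSPA9, by 0.38 on the log2 scale. SPG7, a subunit of the inner membrane protease, rose by 0.49 ± 0.05, but did not pass the test on the spike-in scale (0.08). The chaperonin lid HSPE1 rose, as did 5 genes of this list, while 8 genes of the list were called lower.

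Of 18 tested genes among the other heat shock factors and the partners of HSF1, 11 rose and 4 fell, with a median of 0.12, and on the spike-in scale 2 were higher and 11 lower. VCP, a segregase of ubiquitin-marked proteins, rose by 1.04 ± 0.04 and IER5, itself a heat-inducible partner of HSF1, by 0.74 ± 0.05, and both stayed higher on the spike-in scale. SIRT1, the deacetylase that acts on HSF1, fell by 0.57, and HSBP1L1, a relative of the HSF1-binding protein HSBP1, by 0.48 on the log2 scale.

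Of 23 tested genes listed as heat-inducible HSF1 targets outside the members, 20 rose and 1 fell. Their median was 0.32 against 0.02 over all tested genes. Whether each listed gene is heat-inducible was not tested, and the list also holds constitutive HSPA8 and the dim HSPA1L (4.95 log2 in medium). On the spike-in scale 5 were higher and 7 lower. HSPA1B, the inducible HSP70, rose by 2.84 ± 0.06, HSPA8, the constitutive HSP70, by 1.86 ± 0.04, and DNAJA1, an HSP40 co-chaperone of HSP70, by 1.02 ± 0.03, and all stayed higher on the spike-in scale (2.43, 1.46 and 0.62). The 1 gene that fell, HSPA4 (-0.11), was named after its value was seen. Against insulin, 20 rose and 0 fell, with a median of 0.31, and on the spike-in scale 4 were higher and 6 lower. In the comparison of insulin with medium none passed the test and the median was 0.01. The differences of HSP90AA1, HSP90AB1 and BAG3 from medium, 0.50 to 0.53, lay above this list's median. They lay below its 3 named HSP70 and HSP40 genes. Those 3 were named for the largest changes of the list, so this order follows in part from the naming.

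**Figure D4:**
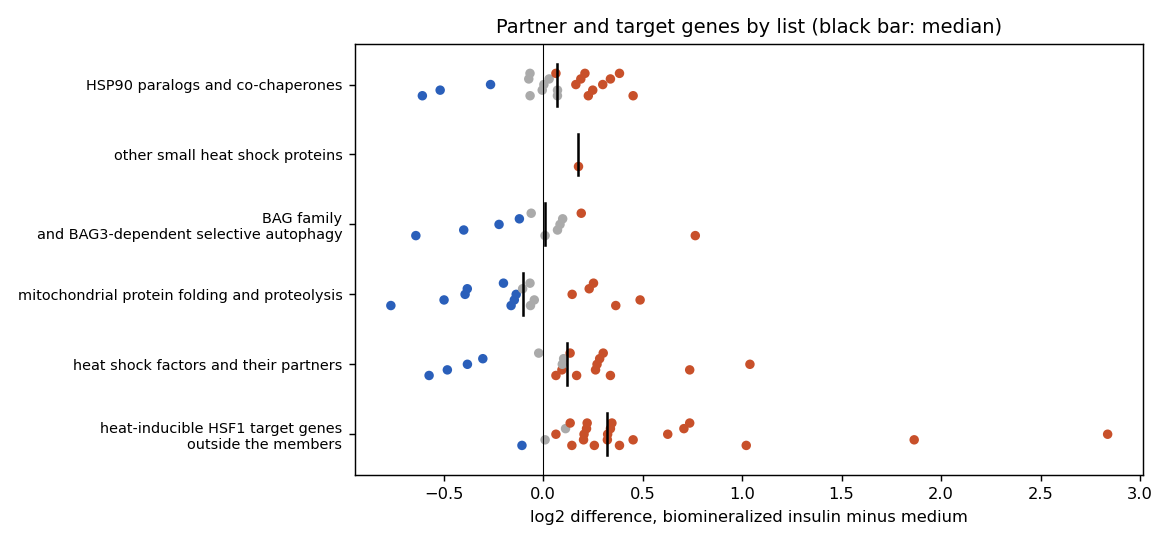
Log2 difference between biomineralized insulin and medium on the deposited scale for each tested gene of 6 lists. Each point is a gene (red called higher, blue called lower, grey not called) and the black bar is the median of the list. The list of heat-inducible HSF1 targets has the highest median of the lists with more than 1 gene, 0.32, with HSPA1B at 2.84. The mitochondrial list has the lowest, -0.10. On the spike-in scale most genes of each list lie below 0.

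The genes whose profile over the 9 arrays was nearest to a member's were named by Euclidean distance between profiles, each centred on its own mean. For HSPE1 the nearest was FAM98A (distance 0.095, difference from medium 0.73 in biomineralized insulin), followed by UTP3, NCS1 and AFG2B at 0.11 to 0.13. For HSP90AB1 they were IMPDH1 (0.089, difference 0.50), FSTL3, METTL1 and CAD, and for BAG3 they were HPS6 (0.057, difference 0.52), GLTP, IMPDH1 and NEIL2. IMPDH1, the rate-limiting enzyme of guanine nucleotide synthesis, stood in both lists. These distances are over 9 arrays of 3 groups and describe likeness of level changes only.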

How the data were processed

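The authors deposited 1 log2 value for each probe set and array, a scale read from the range of the values, and near-equal array medians show normalization between arrays. The program for it is not stated in the labels or headers. Per the labels' protocols, RNA was labelled with a 3' in vitro transcription kit. The platform annotation gave 1 symbol to 44988 of 49395 probe sets, several to 1832 and none to 2473, and 102 were controls. Symbols were updated through Entrez identifiers for 44961 and kept for 27. The dimmest 40% of probe sets were dropped, and the brightest single-gene probe set stood for its gene. All 9 arrays entered 1 limma fit (limma 3.58.1, R 4.3.3, intensity trend, 6 residual degrees of freedom), tested on simulated data first, without a replicate term: same-numbered arrays deviated with correlations of -0.23 to 0.17, 1 of 9 pairs over 0.1. Promoter windows came from RefSeq and covered all members except CRYAB and HSF1, which are not shown here. Members, lists and tests were chosen with earlier results of these data known. From each list the text names up to 4 called genes with the largest absolute change and separate groups, plus any gene called with insulin, and for 3 members the 4 genes of nearest profile.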

Additional observations from a re-analysis of the deposited data

How the results depend on the processing

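Alternatives were other scalings, filters, probe set choices, variance models, thresholds and left-out arrays. The replicate block changed no member call: 0, 6 and 6 genes and 2, 15 and 14 probe sets were called for insulin against medium, biomineralized insulin against medium and biomineralized insulin against insulin. For insulin against medium, the 2 called probe sets became 0 with spike-in centring, without the intensity trend and at 1.5-fold, 1 at an adjusted p under 0.01 and with only the 6 arrays compared, and 0 to 2 with 1 array left out. The count of called genes became 1 (HSP90AA1) with the probe set of largest variance, with the mean of a gene's probe sets and without cross-hybridizing probe sets. For biomineralized insulin, the 6 called genes became 3 against either group without cross-hybridizing probe sets, where fewer members have a probe set, and 1 against either group at 1.5-fold. Of the genes called higher against medium, the count became 7 (HSF1 added) with quantile normalization. The same held with array weights, with the mean of a gene's probe sets and without medium replicate 3. The probe sets became 4 and 2 at 1.5-fold. With spike-in centring, the 15 probe sets called higher against medium became 4 higher and 9 lower, and the 14 against insulin became 9 calls, of which 2 were higher and 7 lower.

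Values that changed sign with spike-in centring were, against medium and against insulin, HSPB8 (-0.015 and -0.092), CRYAB (-0.33 and -0.30), HSPD1 (-0.29 and -0.27) and HSF1 (-0.28 and -0.37), and HSPD1 in insulin against medium (-0.015). The last was also -0.0066 with quantile normalization and -0.088 with the probe set of largest variance. HSF1 against insulin was -0.00035 with median centring, and HSPB1 against insulin 0.0052 with array weights. With 1 array left out, insulin against medium ranged from -0.00059 to 0.069 for BAG3, -0.094 to 0.047 for HSPB1, -0.017 to 0.021 for HSPD1 and -0.041 to 0.012 for CRYAB. Biomineralized insulin against insulin ranged from -0.085 to 0.057 for HSPB1 and -0.0081 to 0.033 for HSF1, and CRYAB against medium from -0.016 to 0.12. None of these left-out values passed the test. The causes were not tested. Over all tested genes, insulin against medium gave 2 calls at 1.5-fold and 604 with array weights.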

Other observations

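With members included, 52 tested genes have a promoter window with the 3-unit element searched for above. In biomineralized insulin against medium, 20 of them (38.5%) were called higher and 7 (13.5%) lower, with a median of 0.08 log2. Of 9929 tested genes with a window and no such element, 26.2% were called higher and 26.1% lower, with a median of 0.02. This split was made after the members' values were seen, no test was run on it, and the letters in a window are not evidence of binding. All counts are on the deposited scale.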
